A study of Homo sapiens with 9 samples.

Results

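The genes examined were the replication-dependent histone genes, the clustered genes that supply core and linker histones to new chromatin. They were chosen by symbol and by total count, as the rows of the count table whose symbol starts with HIST1H, HIST2H, HIST3H or HIST4H and whose raw counts sum to at least 10 over the libraries. This gave 46 of 73 such rows and of 30017 genes in all. RNA-sequencing was performed on MOLM13, a human line of acute myeloid leukemia cells with a monocytic character. The cells were transduced with GFP-marked lentivirus that expresses either a control short hairpin RNA (sh-Control) or 1 of 2 hairpins against DDX41, a DEAD-box RNA helicase (shDDX41 #1 and shDDX41 #2), and were sorted 4 days later. Each group had 3 libraries, lettered A, B and D, with no other agent or allele named, and each held 16385238 to 20510032 counts. The labels do not say whether the letters are separate transductions, so p-values measure the spread between these libraries, which may be technical.

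Replication-dependent histone mRNAs are made in S phase, when new DNA has to be packaged. Unlike other mRNAs they normally end in a conserved stem-loop without a poly(A) tail, and stem-loop binding protein (SLBP) together with the U7 small nuclear ribonucleoprotein directs the cut behind it. Some of these genes also give longer or spliced transcripts that run past the stem-loop to a poly(A) site, and such forms are known from differentiated or non-dividing cells. The libraries were poly(A)-selected, so the counts mainly record tailed forms and carry-over, not the bulk of histone mRNA. The 46 genes held 8642 counts in all, 0.00365% to 0.00948% of a library.

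The stem-loop is shown because it separates the tail-less form from the longer forms. A search of GENCODE 29 transcripts (GRCh38) for a stem of 6 complementary bases that opens with GG, closed over a loop of 4 bases that opens with TT, found it in 20 of the 46 genes, in 4 versions. Capitals mark the stem and lower case the loop, 5′ to 3′.
H2A and H2B genes and HIST1H3H, 12 genes: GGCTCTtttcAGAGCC
HIST1H2BC, HIST1H2BD and HIST1H2BF: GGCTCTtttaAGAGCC
HIST4H4, HIST1H4B, HIST1H4E and HIST1H4H: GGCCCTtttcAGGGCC
HIST1H4I: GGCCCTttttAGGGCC
Many of the models continued well past it. The annotated transcript ran on for 1729 bases in HIST2H2BE, 1128 in HIST1H2AC, 769 in HIST1H3H, 390 in HIST3H2A, 377 in HIST1H2BN and 116 in HIST1H2BC. In genes such as HIST1H2BD and HIST1H2AE it ran on for 39 to 51 bases. Members with too few counts for a test also had long runs. These were 1655 bases in HIST1H4H, 1640 in HIST1H2BH, 1510 in HIST4H4, 1479 in HIST2H2BF, 1059 in HIST1H2BG, 1022 in HIST1H4E and 732 in HIST1H2BF. A poly(A) signal (AATAAA or ATTAAA) was sought in the last 50 bases of the transcript that ran furthest past the stem-loop. It was present in HIST2H2BE, HIST1H2AC, HIST1H3H, HIST3H2A and HIST1H2BD, and absent in HIST1H2BN, HIST1H2BC and HIST1H2AE. Among members with too few counts for a test, HIST2H2BF, HIST1H2BH, HIST1H4E, HIST1H4H and HIST2H2AA4 had it, and the others with a stem-loop did not. No stem-loop was found in the models of the other 26 genes, of which several end at the stop codon in this release.

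Of the 46 genes, 39 lie on chromosome 6, 6 on chromosome 1 and 1 on chromosome 12, in RefSeq and GENCODE alike. Many stand head to head, mostly an H2A gene facing an H2B gene across a short shared region, and 12 such pairs were found among the members with less than 1000 bases between their RefSeq starts. The shared regions of the most abundant gene and of the pairs with both genes tested are given on the plus strand (GRCh38.p14, RefSeq promoter tables), with capitals for ATTTGCAT (the octamer), TATAAA and CCAAT on either strand, where overlapping matches run together.
HIST1H2BK and HIST1H2AH, chr6:27146859-27147105: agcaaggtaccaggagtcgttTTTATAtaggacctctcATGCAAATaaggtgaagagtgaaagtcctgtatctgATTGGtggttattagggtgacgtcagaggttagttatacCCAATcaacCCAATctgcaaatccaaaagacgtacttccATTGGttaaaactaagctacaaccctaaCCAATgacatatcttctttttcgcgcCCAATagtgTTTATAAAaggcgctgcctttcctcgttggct
HIST1H2BC and HIST1H2AC, chr6:26123927-26124144: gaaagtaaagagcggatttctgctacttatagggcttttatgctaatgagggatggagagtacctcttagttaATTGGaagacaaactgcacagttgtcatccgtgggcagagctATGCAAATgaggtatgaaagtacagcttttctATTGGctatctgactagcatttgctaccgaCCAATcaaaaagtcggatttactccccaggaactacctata
HIST2H2BE and HIST2H2AC, chr1:149886683-149886917: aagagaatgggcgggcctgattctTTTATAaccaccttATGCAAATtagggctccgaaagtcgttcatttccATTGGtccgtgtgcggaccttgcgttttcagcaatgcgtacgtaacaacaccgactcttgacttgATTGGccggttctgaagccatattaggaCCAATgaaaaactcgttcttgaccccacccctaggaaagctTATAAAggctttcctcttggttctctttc
HIST1H2BJ and HIST1H2AG, chr6:27132796-27133041: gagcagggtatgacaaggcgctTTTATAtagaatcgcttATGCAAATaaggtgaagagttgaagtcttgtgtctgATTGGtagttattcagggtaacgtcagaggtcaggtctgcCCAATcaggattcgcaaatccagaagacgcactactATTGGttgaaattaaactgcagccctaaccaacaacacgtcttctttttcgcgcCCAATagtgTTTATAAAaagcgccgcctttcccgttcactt
Bases inside either gene in GENCODE were left out, so 218 of the 245 bases between the starts of HIST1H2BC and HIST1H2AC are shown, where the run stops inside a TATAAA match on the HIST1H2AC side, and 246 of the 247 between HIST1H2BJ and HIST1H2AG. Each of these 4 regions held 1 octamer. In the 250 bases before the start, the octamer was in 45.0% of the 40 members with a window, against 1.66% of 27305 windows over all genes, and it was in 76.9% of 13 H2B and 63.6% of 11 H2A windows. TATAAA was in 67.5% of member windows against 11.1%, and CCAAT in 87.5% against 33.0%. H4 windows differed, since 0 of 7 held the octamer and 28.6% held CCAAT.

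DDX41, the targeted gene, was at 117, 115 and 113 CPM (counts scaled to library depth, with totals adjusted by TMM) in sh-Control, at 12.2, 12.9 and 9.95 CPM with shDDX41 #1 and at 38.9, 39.9 and 42.5 CPM with shDDX41 #2. It stood at 10.2% of the control mean with shDDX41 #1 and at 35.2% with shDDX41 #2. Of 12 myeloid and monocytic markers none was at 0, and their summed CPM was 2795 to 2957 in sh-Control libraries, 2923 to 3095 in those of shDDX41 #1 and 3723 to 3791 in those of shDDX41 #2, which stood above all other libraries. T cell markers summed to 0.975 to 1.33, 0.239 to 0.607 and 1.95 to 2.18 CPM, with CD3G and CD2 at 0, and B cell markers to 0.474 to 1.09, 0.728 to 1.32 and 0.702 to 1.09 CPM, with MS4A1 and PAX5 at 0. The part of these marker differences in the results was not tested. Tail-less RNAs of RNA polymerase III (RN7SK, RN7SL1, RN7SL2, RMRP and RPPH1, chosen after values were seen) set replicate D of sh-Control and replicate D of shDDX41 #1 apart. They summed to 24.5, 15.7 and 60.3 CPM in sh-Control A, B and D, to 17.7, 40.3 and 130.2 CPM with shDDX41 #1 and to 17.0, 33.2 and 29.4 CPM with shDDX41 #2. Results that rest on those 2 libraries are given with and without them.

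Histone counts were higher with shDDX41 #1. Summed over the 46 members, the level was 42.9 ± 6.85 CPM (SD, n = 3) in sh-Control, 81.2 ± 15.2 CPM with shDDX41 #1 and 40.8 ± 3.89 CPM with shDDX41 #2. The libraries ranged from 37.1 to 50.4, from 70 to 98.5 and from 36.7 to 44.5 CPM, so shDDX41 #1 stood above every other library and the other 2 groups overlapped. In a bulk culture, a change in the share of cells that make an RNA and a change in RNA per cell cannot be told apart. Most of the gap came from 1 gene. Without HIST1H2BK the sums were 27.1 ± 5.12, 35.6 ± 6.70 and 23.2 ± 3.39 CPM, and shDDX41 #1 (30.5 to 43.2 CPM) overlapped sh-Control (23.0 to 32.9 CPM).

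The classes differed in this. The 14 H2B genes, whose protein pairs with H2A in the nucleosome core, summed to 24.7 ± 3.33 CPM in sh-Control, 57.4 ± 10.5 CPM with shDDX41 #1 and 25.0 ± 1.54 CPM with shDDX41 #2. The 12 H2A genes summed to 7.07 ± 1.34, 11.5 ± 1.70 and 7.15 ± 1.35 CPM, and the 8 H3 genes to 1.99 ± 0.585, 3.78 ± 0.740 and 2.02 ± 0.582 CPM. In these 3 classes every library of shDDX41 #1 was above every other library. The H2B sum included HIST1H2BK, at means of 15.7 CPM in sh-Control and 45.6 CPM with shDDX41 #1. In the same order, the H2A sum included HIST1H2AC (2.21 and 4.90 CPM) and HIST3H2A (1.35 and 3.32 CPM). The H3 sum included HIST1H3H (0.545 and 1.63 CPM) and HIST1H3D (0.495 and 1.19 CPM). These sums therefore do not describe the other genes of each class. The 9 H4 genes were at 1.63 ± 0.177, 1.49 ± 0.355 and 1.35 ± 0.488 CPM. The 3 genes of linker histone H1, which binds the DNA between nucleosomes, were at 7.48 ± 2.06, 7.0 ± 2.97 and 5.29 ± 1.33 CPM. The H4 and H1 sums overlapped among all 3 groups.

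Of the 46 members, 16 passed the filter on low counts and were tested; the other 30 had 10 to 65 counts over the 9 libraries and at most 15 in any 1 of them. No H4 gene was tested. Among the 16, edgeR's quasi-likelihood test called 9 between shDDX41 #1 and sh-Control at an adjusted p under 0.05, with 47.8% of all 12712 genes tested called in that comparison. HIST1H2BK, HIST1H3H, HIST3H2A, HIST1H3D, HIST1H2BN, HIST1H2AC, HIST2H2BE and HIST1H2BC were higher (8 members, against 23.7% of all genes called higher) and HIST2H2AC was lower (1 member, against 24.1%). HIST2H2AC passed the filter only through its sh-Control level and HIST1H3D only through its shDDX41 #1 level, so these counts are a description. The median log2 fold change was 0.55 over the 16 and 0.01 over all genes tested. With shDDX41 #2, edgeR called 0 of the 16, against 25.0% of all genes, and 1 of them (HIST1H1C) had an unadjusted p under 0.05. DESeq2 and limma voom also called 0, and the median was -0.20 against -0.01 over all genes. In CPM, 9 of the 16 had no overlap between groups with shDDX41 #1 (53.1% of all genes), HIST1H1C alone had none with shDDX41 #2 (43.8%), and 9 had none between the hairpins (57.7%). Without the filter, which left 19376 genes, 9 of the 46 members were called with shDDX41 #1 (32.1% of all genes), 0 with shDDX41 #2 (17.4%) and 8 between the hairpins (32.8%). For shDDX41 #2 against sh-Control, the interval of HIST1H2BK was narrow (-0.13 to 0.44, log2), whereas that of HIST1H3H reached 1.64.

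**Figure D1:**
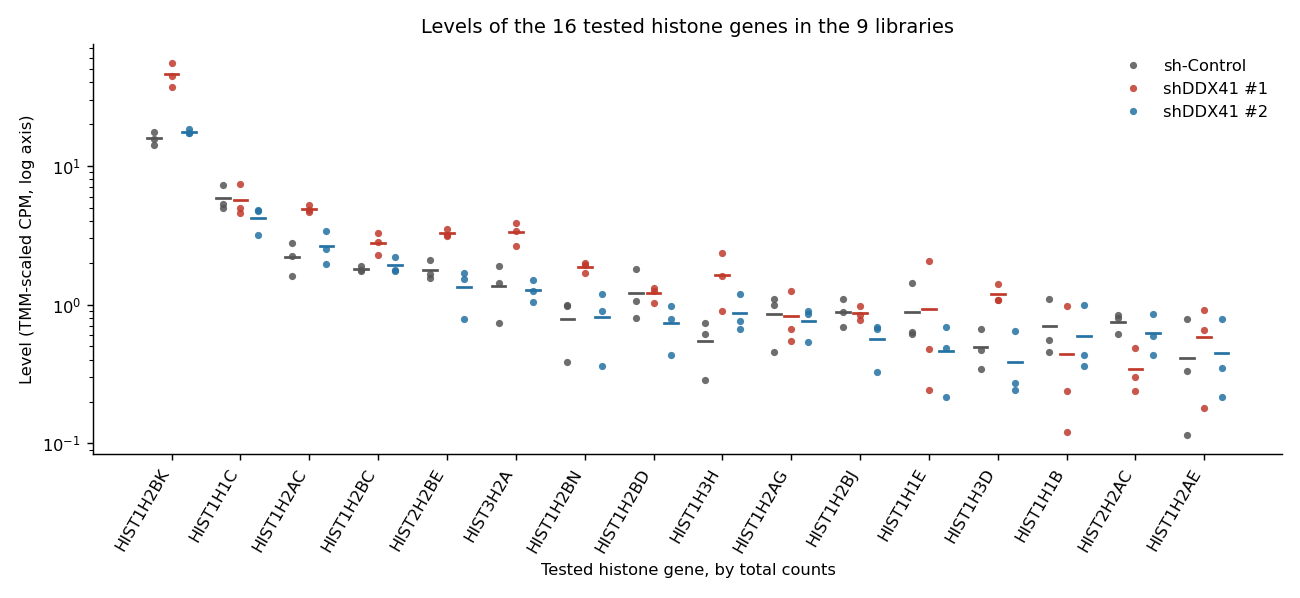
Level of each of the 16 tested histone genes in each library (TMM-scaled CPM, log axis), with genes ordered by total counts over the 9 libraries. Points are libraries and short lines are means of 3. HIST1H2BK was at 36.9 to 55.3 CPM with shDDX41 #1 and at 14.1 to 18.2 CPM in the other 6 libraries.

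HIST1H2BK, an H2B gene now named H2BC12 (coding part at chr6:27146418-27146798, minus strand), held 4099 of the 8642 member counts. It was at 15.5, 14.1 and 17.6 CPM in sh-Control A, B and D, at 44.5, 36.9 and 55.3 CPM with shDDX41 #1 and at 17.2, 18.2 and 17.3 CPM with shDDX41 #2. All libraries of shDDX41 #1 were above all others, and the other 2 groups overlapped. The log2 fold change with shDDX41 #1 was 1.53 ± 0.13 (SE), a 2.89-fold difference, with an edgeR adjusted p of 2.31e-07. Against shDDX41 #2 it was 1.37 ± 0.13 (edgeR adjusted p = 6.21e-07). The gene took 34.9% to 38.0% of the member counts in sh-Control libraries, 52.6% to 59.4% with shDDX41 #1 and 41.0% to 46.8% with shDDX41 #2. Its RefSeq gene spans 8566 bases, against 378 of coding sequence, and HIST1H4I lies within that span on the other strand. Whether reads of these 2 genes were kept apart depends on the counting, which the sources describe inconsistently for strand. HIST1H4I had 34 counts over the 9 libraries. Its head-to-head partner HIST1H2AH, whose upstream region is the first one printed above, had 25 counts and was not tested.

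The facing genes HIST1H2BC and HIST1H2AC, now H2BC4 and H2AC6, were both higher with shDDX41 #1. HIST1H2AC was at 2.22, 1.61 and 2.79 CPM in sh-Control, 4.82, 4.67 and 5.22 CPM with shDDX41 #1 and 1.95, 2.53 and 3.39 CPM with shDDX41 #2. Its shDDX41 #1 libraries did not overlap the others, at a log2 fold change of 1.14 ± 0.23 from sh-Control (edgeR adjusted p = 0.000742). HIST1H2BC was at 1.89, 1.78 and 1.74 CPM in sh-Control, 2.29, 2.81 and 3.28 CPM with shDDX41 #1 and 2.22, 1.79 and 1.76 CPM with shDDX41 #2. Its shDDX41 #1 libraries did not overlap the others either, but the gap was small. The log2 fold change was 0.63 ± 0.21 (edgeR adjusted p = 0.0245), and the call was lost without replicate B or D of either sh-Control or shDDX41 #1 (log2 fold changes of 0.51 to 0.63).

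Of the facing genes HIST2H2BE and HIST2H2AC, now H2BC21 and H2AC20 on chromosome 1, HIST2H2BE rose with shDDX41 #1. It was at 1.67, 1.55 and 2.11 CPM in sh-Control, 3.19, 3.11 and 3.52 CPM with shDDX41 #1 and 1.67, 1.54 and 0.788 CPM with shDDX41 #2. It was higher in every shDDX41 #1 library than in any other (log2 fold change 0.88 ± 0.24 from sh-Control, edgeR adjusted p = 0.00779). HIST2H2AC was at 0.611, 0.803 and 0.843 CPM in sh-Control, 0.301, 0.239 and 0.485 CPM with shDDX41 #1 and 0.432, 0.595 and 0.848 CPM with shDDX41 #2. The shDDX41 #1 libraries were below every sh-Control library and overlapped shDDX41 #2, at a log2 fold change of -1.12 ± 0.42 from sh-Control (edgeR adjusted p = 0.0385) that rests on 4 to 16 counts a library. The gene entered the test only through its sh-Control level, where it was high, and the call was lost in 9 of 19 alternatives. Among these were the DESeq2 test, the fit without a filter (edgeR adjusted p = 0.0781) and the fits without sh-Control B or D, shDDX41 #1 A or B or shDDX41 #2 B (log2 fold changes of -1.12 to -0.92). Of the facing genes HIST1H2BJ and HIST1H2AG neither was called, at log2 fold changes of -0.03 ± 0.34 and -0.06 ± 0.41 with shDDX41 #1.

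HIST3H2A, now H2AC25 and the only HIST3 gene among the members, lies apart from the large cluster on chromosome 1 (chr1:228456979-228457873, minus strand). It was at 1.89, 1.43 and 0.737 CPM in sh-Control, 2.65, 3.41 and 3.88 CPM with shDDX41 #1 and 1.24, 1.04 and 1.52 CPM with shDDX41 #2. The log2 fold change of 1.30 ± 0.29 (edgeR adjusted p = 0.00176) kept its call in all 19 alternatives.

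The H3 genes HIST1H3H and HIST1H3D, now H3C10 and H3C4, were the tested members of their class. HIST1H3H was at 0.611, 0.287 and 0.737 CPM in sh-Control, 0.904, 1.62 and 2.37 CPM with shDDX41 #1 and 0.756, 1.19 and 0.667 CPM with shDDX41 #2. The shDDX41 #1 libraries were above sh-Control (log2 fold change 1.55 ± 0.42, edgeR adjusted p = 0.00633) and overlapped shDDX41 #2. HIST1H3D was at 0.666, 0.344 and 0.474 CPM in sh-Control, 1.08, 1.08 and 1.40 CPM with shDDX41 #1 and 0.270, 0.645 and 0.242 CPM with shDDX41 #2. Its log2 fold change was 1.25 ± 0.38 (edgeR adjusted p = 0.0145), and it passed the filter only through its shDDX41 #1 level. The H2B gene HIST1H2BN, now H2BC15, was at 0.389, 0.975 and 1.00 CPM in sh-Control, 1.93, 1.68 and 2.0 CPM with shDDX41 #1 and 1.19, 0.893 and 0.364 CPM with shDDX41 #2. Its log2 fold change was 1.24 ± 0.37 (edgeR adjusted p = 0.0127). Within its GENCODE span lie HIST1H2AK on the other strand, with 29 counts, and HIST1H2AL on the same strand, with 51 counts. Without sh-Control B the call of HIST1H3D was lost (log2 fold change 1.05), and without sh-Control A that of HIST1H2BN (0.91).

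The other tested members were not called in any comparison. The linker histone genes were HIST1H1C, at 5.88 ± 1.26, 5.63 ± 1.55 and 4.23 ± 0.898 CPM in sh-Control, shDDX41 #1 and shDDX41 #2, HIST1H1E at 0.888 ± 0.463, 0.928 ± 0.990 and 0.465 ± 0.240 CPM, and HIST1H1B at 0.707 ± 0.349, 0.444 ± 0.460 and 0.596 ± 0.345 CPM. Their spread was wide, and in sh-Control and shDDX41 #1 replicate D was the highest of the 3 libraries for all of them. HIST1H1E, for example, was at 1.42 CPM in sh-Control D and 2.06 CPM in shDDX41 #1 D, and at 0.241 to 0.631 CPM in the A and B libraries of both groups. The 95% interval of its log2 fold change with shDDX41 #1, -1.22 to 1.31, spans more than a 2-fold change either way. HIST1H2BD was at 1.22 ± 0.513, 1.2 ± 0.154 and 0.732 ± 0.274 CPM, HIST1H2BJ at 0.887 ± 0.202, 0.864 ± 0.0978 and 0.562 ± 0.206 CPM, and HIST1H2AG at 0.855 ± 0.347, 0.822 ± 0.381 and 0.760 ± 0.192 CPM. HIST1H2AE was at 0.413 ± 0.345, 0.583 ± 0.370 and 0.450 ± 0.300 CPM.

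**Figure D2:**
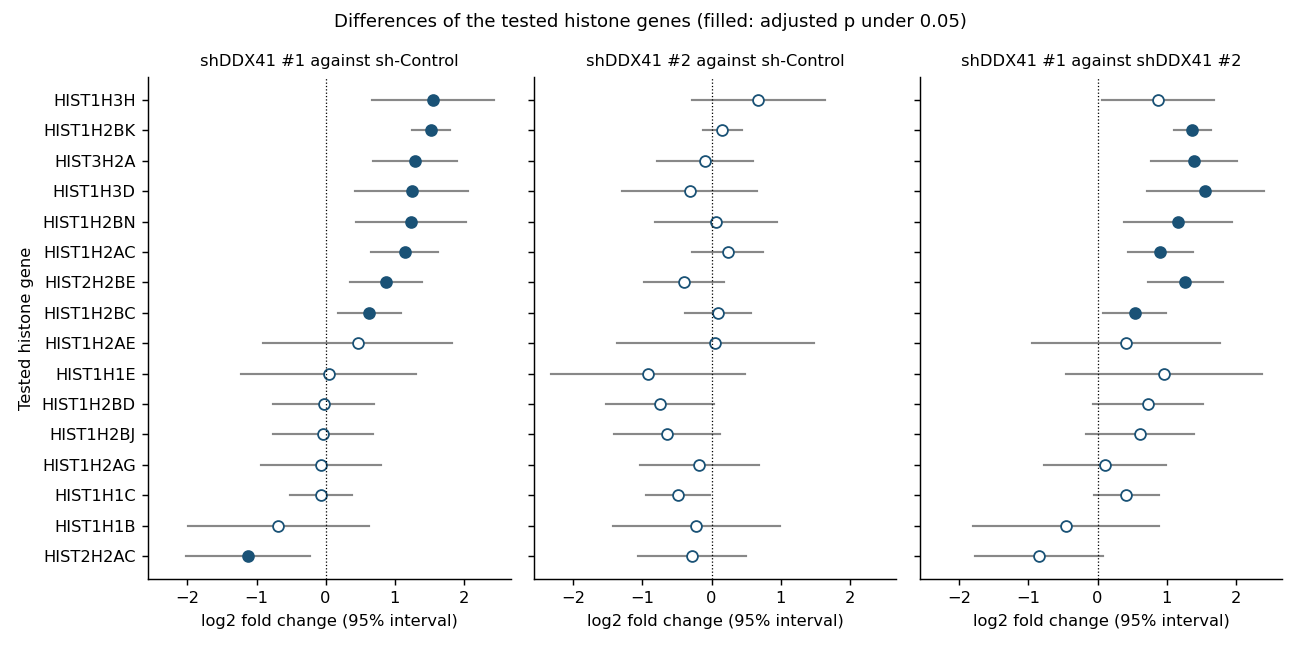
The log2 fold change with its 95% interval for the 16 tested histone genes in the 3 comparisons, ordered by the first. Filled points had an adjusted p under 0.05 in edgeR's test. The 9 filled points of shDDX41 #1 against sh-Control are 8 above 0 and HIST2H2AC below, and no point of shDDX41 #2 against sh-Control is filled. Of all genes tested, 47.8% were called with shDDX41 #1 and 25.0% with shDDX41 #2.

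The 2 hairpins were also compared directly. Here 7 of the 16 were called, all higher with shDDX41 #1, with 48.8% of all genes called and 24.6% called higher. They were HIST1H3D (log2 difference 1.56 ± 0.40), HIST3H2A (1.40 ± 0.29), HIST1H2BK (1.37 ± 0.13), HIST2H2BE (1.27 ± 0.25), HIST1H2BN (1.17 ± 0.37), HIST1H2AC (0.91 ± 0.22) and HIST1H2BC (0.54 ± 0.21). HIST1H3D passed the filter only through its shDDX41 #1 level, where it was high, so the count is a description. The edgeR adjusted p ran from 6.21e-07 for HIST1H2BK to 0.0476 for HIST1H2BC, and the call of HIST1H2BC was lost in 13 of 19 alternatives, among them the fits without any 1 of sh-Control A, B and D, shDDX41 #1 B and D and shDDX41 #2 B and D (0.41 to 0.54). That of HIST1H2BN was lost without shDDX41 #2 D (0.84). HIST1H3H and HIST2H2AC, which were called against sh-Control, were not called here, at 0.88 ± 0.38 (edgeR adjusted p = 0.0694) and -0.84 ± 0.44 (edgeR adjusted p = 0.123). The comparison shares its shDDX41 #1 libraries with the first one. The difference in DDX41 itself, 10.2% against 35.2% of the control mean, goes with the hairpin and cannot be told apart from other differences between the hairpins.

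The members differed in the length of their annotated models. A gene was called long where its span in GENCODE or RefSeq exceeds its coding length by over 300 bases, a limit set after the values were seen. The larger of the 2 spans was used, and the 2 annotations often disagreed. HIST1H2BK spans 381 bases in GENCODE and 8566 in RefSeq, and HIST1H3D 411 and 2510. In the same order HIST1H2AC spans 14972 and 519 bases, HIST3H2A 895 and 510, HIST1H3H 1237 and 486, and HIST1H2BN 28039 and 542. Of the members called higher with shDDX41 #1, only HIST2H2BE and HIST1H2BC were long in both, as was the uncalled HIST1H2BD. By the larger span 21 members were long, 24 were short and 1 pseudogene had no coding model. Of the tested members 11 were long. Of these 8 were called higher and none lower with shDDX41 #1, beside 23.7% and 24.1% of all genes. The median log2 fold change of the 11 was 1.14, beside 0.01 over all genes tested. The long members HIST1H2BD, HIST1H2BJ and HIST1H2AG were not called. Of the 5 short members tested (HIST1H1C, HIST1H1E, HIST1H1B, HIST2H2AC and HIST1H2AE), none was called higher and HIST2H2AC was called lower (median -0.07). The long HIST1H3D and the short HIST2H2AC are the called members that passed the filter only through the group where they were high. Their calls do not count as support for a difference between long and short members, which was not tested. Of the uncalled short members, HIST1H2AE would not have passed without shDDX41 #1, its highest group, nor HIST1H1E without sh-Control. HIST1H1B passed with 1 library over the cutoff in each group. The short median rests in part on these genes. With shDDX41 #2 the medians were -0.10 and -0.28. The annotated span does not show which transcript the reads came from.

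**Figure D3:**
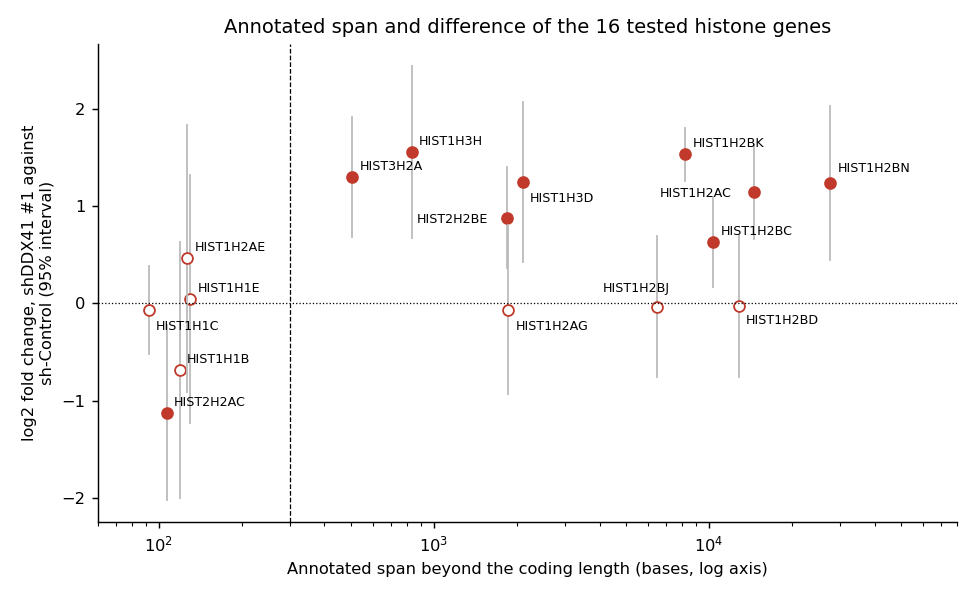
Annotated span beyond the coding length (bases, log axis) against the log2 fold change of shDDX41 #1 from sh-Control with its 95% interval, for the 16 tested histone genes. The span is the larger of GENCODE and RefSeq, which often disagreed. Filled points were called, and the dashed line marks 300 bases. The 8 members called higher lie to its right, together with HIST1H2AG, HIST1H2BJ and HIST1H2BD at about 0.

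The summed short members varied between libraries of the same group, and the 3 groups overlapped. Summed over all 24, they were at 10.6, 10.3 and 16.4 CPM in sh-Control A, B and D, at 8.32, 9.04 and 15.8 CPM with shDDX41 #1 and at 6.81, 11.0 and 9.94 CPM with shDDX41 #2. Replicate D was highest in sh-Control and shDDX41 #1 and replicate B in shDDX41 #2, the same libraries in which the summed RNA polymerase III transcripts were highest. The part of tail-less RNA in these counts was not tested. The 21 long members were at 30.2, 26.5 and 33.4 CPM, 66.7, 60.8 and 82.3 CPM, and 29.4, 32.9 and 31.1 CPM in the same order. Their shDDX41 #1 libraries lay above all others with or without replicate D. Much of this sum was HIST1H2BK, at 15.5, 14.1 and 17.6 CPM in sh-Control and 44.5, 36.9 and 55.3 CPM with shDDX41 #1. The 11 tested long members held 27.8, 24.4 and 30.8 CPM in sh-Control and 64.3, 58.5 and 79.5 CPM with shDDX41 #1. The sum therefore does not describe the 10 long members that were not tested. All 30 members not tested, long and short, summed to 6.57 ± 1.48 CPM in sh-Control and 5.83 ± 1.16 CPM with shDDX41 #1. With shDDX41 #2 they summed to 5.61 ± 1.18 CPM, and the 3 groups overlapped. Without both D libraries, a choice made after the data were seen, 6 members were called higher with shDDX41 #1 and none lower, with 47.6% of 12843 genes called, 23.7% higher and 23.9% lower. HIST1H2BK, HIST1H2AC, HIST2H2BE, HIST3H2A, HIST1H2BN and HIST1H3H stayed called, and HIST1H2BC, HIST1H3D and HIST2H2AC did not.

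**Figure D4:**
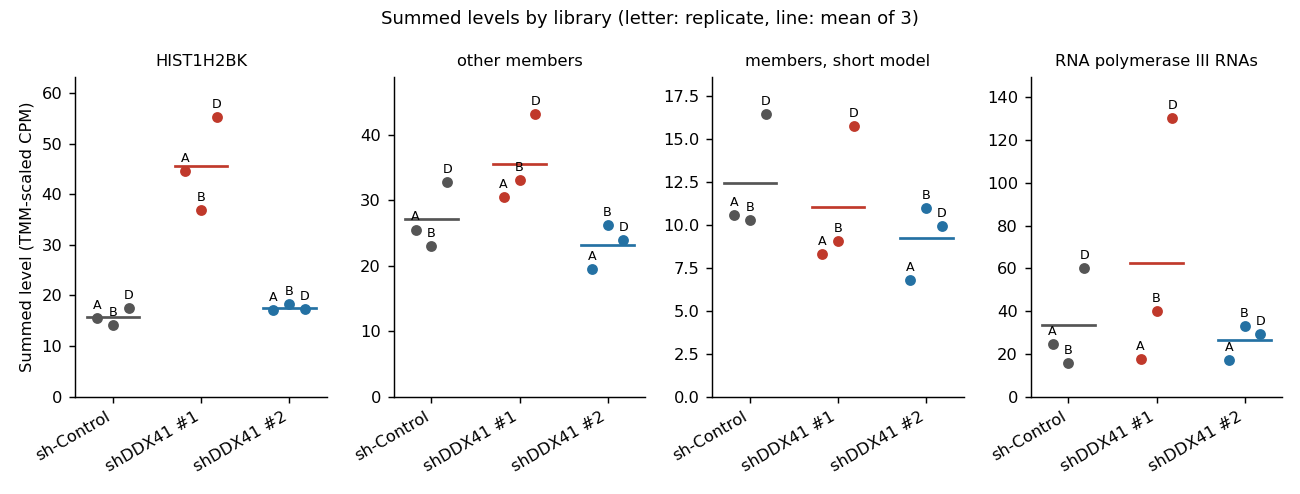
Summed level (TMM-scaled CPM) by library for HIST1H2BK, the other 45 members, the 24 members with a short gene model and 5 RNA polymerase III transcripts. Letters are replicates and lines are means of 3; each panel has its own axis from 0. Replicate D was highest in sh-Control and shDDX41 #1 in all 4 panels.

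Around the members stand the genes that make and finish histone mRNA. Of 44 tested genes of this list, 9 were called higher and 17 lower with shDDX41 #1 (median log2 fold change -0.08), beside 23.7% and 24.1% of all genes, and 2 higher and 7 lower with shDDX41 #2 (median -0.02), beside 11.6% and 13.4% of all genes. SLBP, which binds the stem-loop, was at 145, 163 and 180 CPM in sh-Control, 106, 113 and 128 CPM with shDDX41 #1 and 135, 135 and 133 CPM with shDDX41 #2. It fell with shDDX41 #1, at a log2 fold change of -0.49 ± 0.08 (edgeR adjusted p = 0.000199) called in all 19 alternatives. With shDDX41 #2 the log2 fold change was -0.28 ± 0.08 (edgeR adjusted p = 0.0221), and the call was lost without sh-Control B or D or any 1 of the shDDX41 #2 libraries (-0.28 to -0.20, edgeR adjusted p up to 0.102). NPAT, the coactivator of histone gene transcription, was not called (-0.17 ± 0.10 and -0.02 ± 0.10). The kinase and cyclins that act on NPAT at the start of S phase were lower with shDDX41 #1. CCNE2 fell by 1.67 on the log2 scale, CDK2 by 1.05 and CCNE1 by 0.78. With shDDX41 #2, CCNE1 was also called (-0.63) and CCNE2 was at 0.05. CDK2 was at -0.23 ± 0.07 (edgeR adjusted p = 0.0347), a call lost in 8 of 19 alternatives, among them the fits without sh-Control B or D, shDDX41 #1 A or any 1 of the shDDX41 #2 libraries (-0.24 to -0.20, edgeR adjusted p up to 0.125).

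Factors of the cut and the tail moved in both directions. PAPOLA, the main nuclear poly(A) polymerase, was at 411, 426 and 417 CPM in sh-Control, 213, 219 and 205 CPM with shDDX41 #1 and 398, 409 and 391 CPM with shDDX41 #2. It fell by 0.98 ± 0.06 on the log2 scale with shDDX41 #1 (edgeR adjusted p = 9.60e-09), and differed between the hairpins by -0.91 ± 0.06. NUDT21, a cleavage factor that guides the choice of poly(A) site, fell by 0.71 ± 0.06 with shDDX41 #1 and was at -0.00 ± 0.06 with shDDX41 #2. PCF11, which couples 3′ cleavage to termination, rose by 0.60 ± 0.08, and CSTF2T, a form of the cleavage stimulation factor, by 0.51 ± 0.07. HINFP, an activator of H4 genes, rose by 0.72 ± 0.10 with shDDX41 #1, and NELFA, a subunit of the negative elongation factor, by 0.33 ± 0.06. With shDDX41 #2, HINFP was at 0.32 ± 0.10 (edgeR adjusted p = 0.0316), and the call was lost without sh-Control A or B or any 1 of the shDDX41 #2 libraries (0.29 to 0.35, edgeR adjusted p up to 0.108). MIF4GD, which links SLBP to translation, was higher with both hairpins, at 0.34 ± 0.10 (edgeR adjusted p = 0.0139, lost without sh-Control B, at 0.30) with shDDX41 #1 and 0.43 ± 0.10 with shDDX41 #2, and the difference between them was not called (-0.09 ± 0.10). EXOSC10, a nuclease of the nuclear exosome, was lower with both, at -0.36 ± 0.09 (edgeR adjusted p = 0.00335) and -0.78 ± 0.09, and differed between the hairpins by 0.42 ± 0.09 (edgeR adjusted p = 0.00127). With shDDX41 #2, SYMPK, a scaffold of the cleavage complex (-0.37 ± 0.07), PAPD5, a non-canonical poly(A) polymerase (-0.32 ± 0.08), and ZNF473, a protein of the U7 particle (-0.33 ± 0.09), were lower. ZNF473 was higher with shDDX41 #1 (0.29 ± 0.08), and the hairpins differed by 0.62 ± 0.09. Its calls were lost without shDDX41 #2 B (-0.31 with shDDX41 #2) and without shDDX41 #1 A (0.24 with shDDX41 #1).

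Histone variants are coded by genes outside these clusters whose mRNAs mostly carry a poly(A) tail. Of 11 tested, 2 were called higher and 5 lower with shDDX41 #1 (median log2 fold change -0.03), beside 23.7% and 24.1% of all genes, and 2 higher and 3 lower with shDDX41 #2 (median 0.09), beside 11.6% and 13.4%. H2AFZ, the H2A.Z gene, was at 449, 448 and 524 CPM in sh-Control, 254, 280 and 290 CPM with shDDX41 #1 and 404, 419 and 362 CPM with shDDX41 #2. H2AFX, whose product is phosphorylated at DNA breaks, was at 159, 147 and 148 CPM, 97.2, 92.3 and 91.1 CPM, and 121, 120 and 133 CPM. With either hairpin H2AFX was lower, at log2 fold changes of -0.70 ± 0.07 and -0.28 ± 0.07. On the log2 scale H2AFZ fell by 0.79 ± 0.08 with shDDX41 #1, and CENPA, the centromeric H3 variant, by 0.61 ± 0.10. With shDDX41 #2, H2AFZ was at -0.26 ± 0.08 (edgeR adjusted p = 0.0264), a call lost without sh-Control D or shDDX41 #2 A or D (-0.28 to -0.18, edgeR adjusted p up to 0.137). CENPA was at -0.29 ± 0.10 (edgeR adjusted p = 0.0382), a call lost in 8 of 19 alternatives, among them the fits without sh-Control B or D, shDDX41 #1 A or any 1 of the shDDX41 #2 libraries (-0.33 to -0.22, edgeR adjusted p up to 0.156). H2AFV, another H2A.Z gene, and the linker variant H1FX were called with shDDX41 #1 and not with shDDX41 #2 (-0.33 ± 0.06 and -0.28 ± 0.09 with shDDX41 #1), and the call of H1FX was lost without sh-Control A or shDDX41 #1 A or B (-0.26 to -0.19). H1F0, the linker histone of non-dividing cells, rose by 0.89 ± 0.19 with shDDX41 #1 and was at 0.14 ± 0.19 with shDDX41 #2, a difference of 0.75 ± 0.18 (edgeR adjusted p = 0.00345). H2AFJ rose by 0.35 ± 0.09 with shDDX41 #1. With shDDX41 #2, H2AFY, a macroH2A gene, rose by 0.33 ± 0.07, called in all 19 alternatives. H3F3A, an H3.3 gene, was at 0.19 ± 0.07 (edgeR adjusted p = 0.0419), and the call was lost without any 1 of the sh-Control or shDDX41 #2 libraries (0.15 to 0.22, edgeR adjusted p up to 0.148).

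Of 25 tested chaperones and importers, 2 were called higher and 16 lower with shDDX41 #1 (median log2 fold change -0.53), beside 23.7% and 24.1% of all genes, and 2 higher and 2 lower with shDDX41 #2 (median -0.07), beside 11.6% and 13.4%. NASP, a chaperone of H3 and H4, fell by 2.64 ± 0.09 on the log2 scale against -0.08 ± 0.08 with shDDX41 #2. Of 32 tested S phase markers, 31 were called lower and 0 higher with shDDX41 #1 (median log2 fold change -0.84), beside 24.1% and 23.7% of all genes, and 5 lower and 1 higher with shDDX41 #2 (median -0.10), beside 13.4% and 11.6%.

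**Figure D5:**
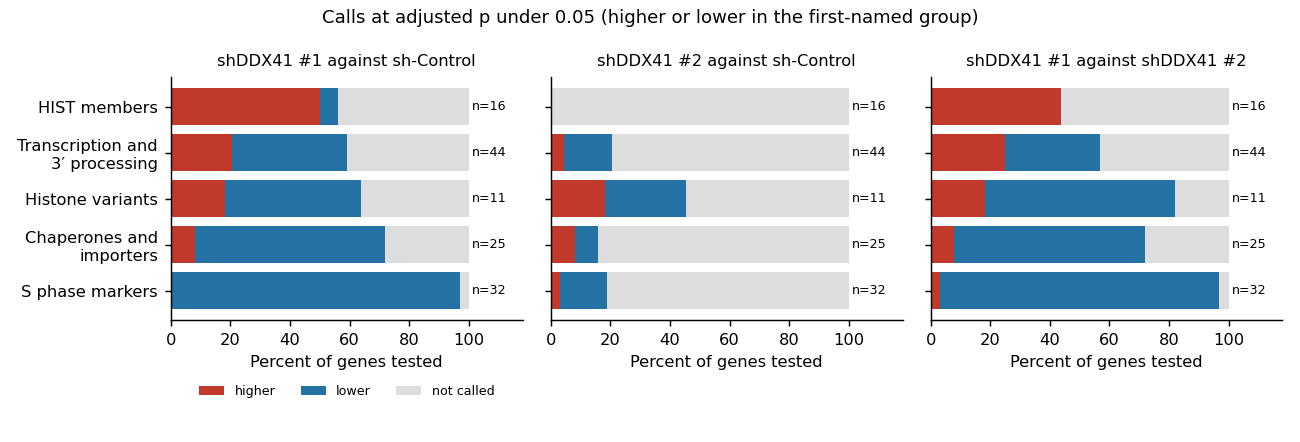
Percent of tested genes called higher, called lower or not called at an adjusted p under 0.05 in the 3 comparisons, for the histone members and 4 related lists, with the number tested beside each bar. With shDDX41 #1 against sh-Control, 8 of 16 histone members were higher and 31 of 32 S phase markers lower. Of all genes tested, 23.7% were called higher and 24.1% lower in that comparison.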

How the data were processed

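Per the labels, RNA from sorted MOLM13 cells was isolated with a column kit and prepared with a stranded poly(A) kit; the methods of the study name an unstranded kit of the same family. The submitters' processing notes list FastQC 0.11.7, HISAT2 2.0.5 and featureCounts 1.5.2 with builds hg38 and mm10; annotation, strand setting and treatment of multi-mapped reads are not given in the sources used here. The authors deposited whole-number raw counts for 30017 genes, 1 column per library and 0 columns unmapped. Counts of near-identical genes (HIST2H2AA3 and HIST2H2AA4, with 6 and 10 counts) are uncertain. Rows at 5 to 9 counts (6 genes) fell just outside the rule and 4 members had 10 to 12.

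The test used edgeR 4.0.16 under R 4.3.3 (filterByExpr by group with a minimum count of 10, TMM, quasi-likelihood test of 1 group model over all 9 libraries, two-sided, Benjamini-Hochberg within each comparison over 12712 genes). The standard error is the log2 fold change divided by the square root of F. For 1 gene, 3 against 3 libraries cannot give an exact permutation p under 0.1, so calls rest on this model. DESeq2 1.42.0, limma 3.58.1 voom, other scalings, filters and thresholds, the replicate letter as a block, and each library left out were the alternatives. The script was tested on simulated data. Gene models came from GENCODE 29 and RefSeq GRCh38.p14, the same build as hg38.

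Named genes were DDX41; the 10 members with most counts; per comparison up to 6 called members each way with the largest non-overlapping change; SLBP, NPAT, NASP and up to 4 called processing genes each way by adjusted p; called variant genes; and facing pairs with both genes tested. The members and lists were chosen with earlier results of these data known. The result of 1 marker list is not reported here.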

Additional observations from a re-analysis of the deposited data

Results flagged for a closer look

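Of the 16 tested histone members, 7 were called in the direct test of shDDX41 #1 against shDDX41 #2 in edgeR's model over 3 libraries a group. In this comparison 48.8% of all genes were called, so the number called does not set the members apart. All 7 were higher with shDDX41 #1, beside 24.6% of all genes called higher. The log2 difference was 1.56 for HIST1H3D (edgeR adjusted p = 0.00454), 1.40 for HIST3H2A (0.00105), 1.37 for HIST1H2BK (6.21e-07), 1.27 for HIST2H2BE (0.000719), 1.17 for HIST1H2BN (0.0161), 0.91 for HIST1H2AC (0.00321) and 0.54 for HIST1H2BC (0.0476). For each of them all 3 shDDX41 #1 libraries were above all 3 shDDX41 #2 libraries. HIST1H3D passed the filter only through its shDDX41 #1 level, where it was high. The call of HIST1H2BC was lost in 13 of 19 alternatives and that of HIST1H2BN in 1. DDX41 itself was lower with shDDX41 #1 than with shDDX41 #2, at 11.7 ± 1.56 CPM against 40.4 ± 1.85 CPM (SD, n = 3). The part of the DDX41 level in the differences was not tested. Single-library outliers were not examined, because each group has 3 libraries.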

How the results depend on the processing

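The count of members called with shDDX41 #1 was 9 of 16, with 47.8% of all genes called. It ran from 6 to 9 when 1 library was left out, was 9 with the replicate letter as a block, and fell to 5 at an adjusted p under 0.01. With shDDX41 #2 the count was 0, with 25.0% of all genes called. It stayed at 0 without any 1 library, and was 1 (HIST1H1C) with the block. Between the hairpins the count was 7, with 48.8% of all genes called. It ran from 5 to 8 without 1 library and was 6 with the block. These shares are those of the main test, so the counts under other settings are a description. The labels do not say what the letters mark. Same-letter correlations of deviations from the group means were 0.07, 0.16 and 0.24 between sh-Control and shDDX41 #1, where each library was closest to the one of its own letter, a hint from the data and not from the design, and ran from -0.06 to 0.02 in the pairs with shDDX41 #2. Without HIST1H2BK the summed level was 27.1, 35.6 and 23.2 CPM in sh-Control, shDDX41 #1 and shDDX41 #2.

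Uncalled values near 0 changed sign. With upper quartile factors the log2 fold change from sh-Control with shDDX41 #1 became 0.0095 for HIST1H1C, 0.051 for HIST1H2BD, 0.00994 for HIST1H2AG, 0.044 for HIST1H2BJ, 0.030 for SYMPK and 0.046 for H2AFY, and with shDDX41 #2 it became 0.013 for NPAT and 0.030 for NUDT21. With these factors the share of calls that were higher went from 49.5% to 61.1% for shDDX41 #1 and rose from 46.3% to 55.8% for shDDX41 #2. HIST1H2BD became 0.048 with limma voom, 0.012 with the block and 0.48 without both D libraries (an alternative added after seeing the data), where HIST1H2AG became 0.40 with shDDX41 #1 and 0.060 with shDDX41 #2 and NUDT21 0.021. NUDT21 with shDDX41 #2 was also 0.0039 with DESeq2 size factors, 0.0038 without a filter, 0.0039 in DESeq2's test and 0.0037 in the 6 libraries compared.

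When 1 library was left out, the log2 fold change with shDDX41 #1 ran from -0.30 to 0.12 for HIST1H1C, from -0.24 to 0.37 for HIST1H2BD, from -0.50 to 0.17 for HIST1H2AG, from -0.19 to 0.14 for HIST1H2BJ, from -0.092 to 0.026 for SYMPK, from -0.025 to 0.066 for H3F3A and from -0.087 to 0.0072 for H2AFY. With shDDX41 #2 it ran from -0.024 to 0.15 for HIST1H2BC, from -0.41 to 0.22 for HIST3H2A, from -0.28 to 0.39 for HIST1H2BN, from -0.46 to 0.053 for HIST1H2AG, from -0.071 to 0.039 for NPAT, from -0.038 to 0.15 for CCNE2, from -0.016 to 0.013 for NUDT21 and from -0.13 to 0.32 for H1F0. HIST1H2AG between the hairpins ran from -0.33 to 0.34. The cause was not tested. No called member changed sign under any of the 19 alternatives to its value.

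HIST1H2BK, HIST1H2AC, HIST2H2BE, HIST3H2A and HIST1H3H kept their call with shDDX41 #1 in all 19 alternatives, HIST1H2BN in 18, HIST1H3D in 17, HIST1H2BC in 13 and HIST2H2AC in 10. Depth limits the rest, since 30 of the 46 members had too few counts for a test.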

Other observations

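HIST1H2BO, an H2B gene with 34 counts that did not pass the filter, had 2, 4 and 11 counts in sh-Control A, B and D, 0, 0 and 1 with shDDX41 #1 and 2, 8 and 6 with shDDX41 #2. In the fit without a filter on low counts, where 19376 genes were tested and 32.1% were called with shDDX41 #1, it was the only called member outside the 16, lower with shDDX41 #1 (edgeR adjusted p = 0.0123 against sh-Control and 0.0157 against shDDX41 #2). In that fit HIST2H2AC was not called with shDDX41 #1 (edgeR adjusted p = 0.0781, over a range of 0.0305 to 0.134 in its alternatives). The gene was singled out after its values were seen.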
